A study of Homo sapiens with 8 samples.

Results

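The 9 genes described here encode enzymes and enzyme subunits of the tricarboxylic acid (TCA) cycle: CS, IDH3A, IDH3B, IDH3G, OGDH, SUCLG1, SUCLA2, FH and MDH2. They are members by symbol, with no measured value in the rule, and each was found by matching its Ensembl identifier to GENCODE. The list was nevertheless chosen with earlier results of these data known, so it is not an unselected sample of cycle genes. All 9 passed the filter on low counts, out of 13943 genes tested and 38032 listed in the files. Messenger RNA was sequenced from HepG2, a line of human hepatocellular carcinoma cells with no altered genotype in the labels, after 8 days of culture in 8 libraries. In the 2D-primed group (n = 4) the cells had grown on flat culture plastic, and in the 3D-primed group (n = 4) on a porous polystyrene scaffold (Alvetex). By the paper's methods the scaffold was seeded at high density to favour layering, with more cells than a flat well of the same format. Surface and seeding cannot be told apart here. Cells of both groups were released with trypsin before RNA extraction. A single line was used, and the labels do not say that the 4 libraries of a group came from separate cultures, so that p-values measure only the spread between these samples, which may be technical.

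The TCA cycle runs in the mitochondrial matrix. Acetyl-CoA from pyruvate, fatty acids and amino acids is joined to oxaloacetate, the product is oxidised in a series of steps that release carbon dioxide, and the electrons are passed to the respiratory chain as NADH and FADH2. In the liver the intermediates of the cycle also leave it, for glucose, fatty acid and amino acid synthesis, and are replaced by other routes. All enzymes of the cycle are encoded in the nucleus and imported.

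The upstream sequences of the 4 genes that were higher in 3D-primed cells, and of both partner subunits of IDH3A that were not, are shown first. They are the 250 bases before the transcription start in RefSeq (GRCh38.p14), written 5′ to 3′ on the strand of the gene. RefSeq starts need not be those of the GENCODE gene models. Capitals mark the letters GCGCA and GCGC separated by 1 base, the site of nuclear respiratory factor NRF1, or CCGGAAG, the core of ETS family sites, each searched on both strands.
FH, chr1:241519756-241520005, minus strand: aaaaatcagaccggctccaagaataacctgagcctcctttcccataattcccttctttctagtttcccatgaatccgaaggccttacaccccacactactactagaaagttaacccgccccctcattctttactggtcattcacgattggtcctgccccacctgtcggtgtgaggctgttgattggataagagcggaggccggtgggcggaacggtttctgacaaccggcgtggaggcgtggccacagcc
SUCLG1, chr2:84459281-84459530, minus strand: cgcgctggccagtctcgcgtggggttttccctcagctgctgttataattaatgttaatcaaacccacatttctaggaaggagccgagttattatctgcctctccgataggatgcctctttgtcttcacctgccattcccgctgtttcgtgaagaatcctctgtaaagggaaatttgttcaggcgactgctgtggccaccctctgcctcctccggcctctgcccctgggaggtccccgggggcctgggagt
SUCLA2, chr13:48001274-48001523, minus strand: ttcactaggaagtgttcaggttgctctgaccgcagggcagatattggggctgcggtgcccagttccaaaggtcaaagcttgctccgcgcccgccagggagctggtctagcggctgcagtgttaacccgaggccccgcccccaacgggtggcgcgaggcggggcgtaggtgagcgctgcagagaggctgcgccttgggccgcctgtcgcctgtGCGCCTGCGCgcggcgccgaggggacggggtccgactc
IDH3A, chr15:78149112-78149361, plus strand: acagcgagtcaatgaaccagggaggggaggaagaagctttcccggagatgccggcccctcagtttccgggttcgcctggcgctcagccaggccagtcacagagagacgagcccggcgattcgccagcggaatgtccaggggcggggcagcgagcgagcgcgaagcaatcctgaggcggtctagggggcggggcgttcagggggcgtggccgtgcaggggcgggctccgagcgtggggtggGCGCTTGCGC
IDH3B, chr20:2664217-2664466, minus strand: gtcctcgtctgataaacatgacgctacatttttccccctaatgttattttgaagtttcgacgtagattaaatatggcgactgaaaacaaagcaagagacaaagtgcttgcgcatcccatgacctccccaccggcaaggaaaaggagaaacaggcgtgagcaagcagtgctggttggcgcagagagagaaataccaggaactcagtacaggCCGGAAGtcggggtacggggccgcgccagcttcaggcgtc
IDH3G, chrX:153794376-153794625, minus strand: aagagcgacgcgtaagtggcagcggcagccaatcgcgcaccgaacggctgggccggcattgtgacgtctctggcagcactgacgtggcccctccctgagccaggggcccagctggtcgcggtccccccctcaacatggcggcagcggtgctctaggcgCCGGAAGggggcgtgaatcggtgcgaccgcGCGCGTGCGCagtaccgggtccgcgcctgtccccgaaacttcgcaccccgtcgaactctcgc

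The NRF1 letters were found in IDH3A (10 bases before the start), SUCLA2 (38 bases) and IDH3G (62 bases), which is 3 of the 8 genes that matched an entry, and in 5.07% of all 35116 RefSeq promoters of the same length. The ETS letters were found in IDH3B (40 bases before the start), IDH3G (92 bases) and MDH2 (113 and 69 bases), again 3 of 8 genes, and in 8.52% of all promoters. Among the 7 other cycle genes searched, 2 held the NRF1 letters (SDHA and SDHD) and 3 held the ETS letters (DLST, SDHB and SDHD). No NRF1 match overlapped an ETS match. The windows of FH, SUCLG1 and CS held neither string. Of the 4 genes that were higher in 3D-primed cells, IDH3A and SUCLA2 held the NRF1 letters and none held the ETS letters. These matches are a description of letters and not of binding.

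The libraries held 21599630 to 27844077 estimated counts, and the totals did not differ between groups beyond their spread (exact two-sided permutation test, p = 0.257). All 8 hepatocyte markers checked were above 10 CPM (counts scaled to a common library size), with a summed level of 68976 to 75051 CPM on flat plastic and 96484 to 108487 CPM on the scaffold. Of 5 fibroblast markers 4 were under 1 CPM on average, with PDGFRB at 13.5 CPM, and their sum ran from 11.0 to 12.1 CPM (2D-primed) and from 15.1 to 18.1 CPM (3D-primed). The 4 endothelial markers summed to 5.58 to 7.72 CPM and 4.16 to 5.70 CPM. Of 4 leukocyte markers CD3E and MS4A1 were at 0, and their sum, nearly all CD68, ran from 71.9 to 74.4 CPM and from 29.8 to 39.4 CPM. The part of these markers in the results was not tested. All libraries came from the HepG2 line, and in its bulk RNA, fewer cells with a transcript and less RNA per cell cannot be told apart.

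Of the 9 genes, 4 were higher in 3D-primed cells and 1 was lower (edgeR quasi-likelihood test, adjusted p below 0.05 over all genes tested). SUCLG1 (1.57-fold) and FH (1.55-fold) changed most, followed by SUCLA2 (1.31-fold) and IDH3A (1.26-fold), and OGDH was 1.17-fold lower. CS, IDH3B, IDH3G and MDH2 did not pass the test. Of all genes tested, 32.4% were called higher and 31.6% lower in 3D-primed cells, so that the 4 higher genes are near this background in share and the 1 lower gene is below it, in a list of only 9. The 5 called genes were also the 5 whose groups did not overlap, against 59.8% of all genes tested. The median log2 fold change (3D-primed over 2D-primed) was 0.10 over the 9 genes and 0.01 over all genes tested.

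**Figure D1:**
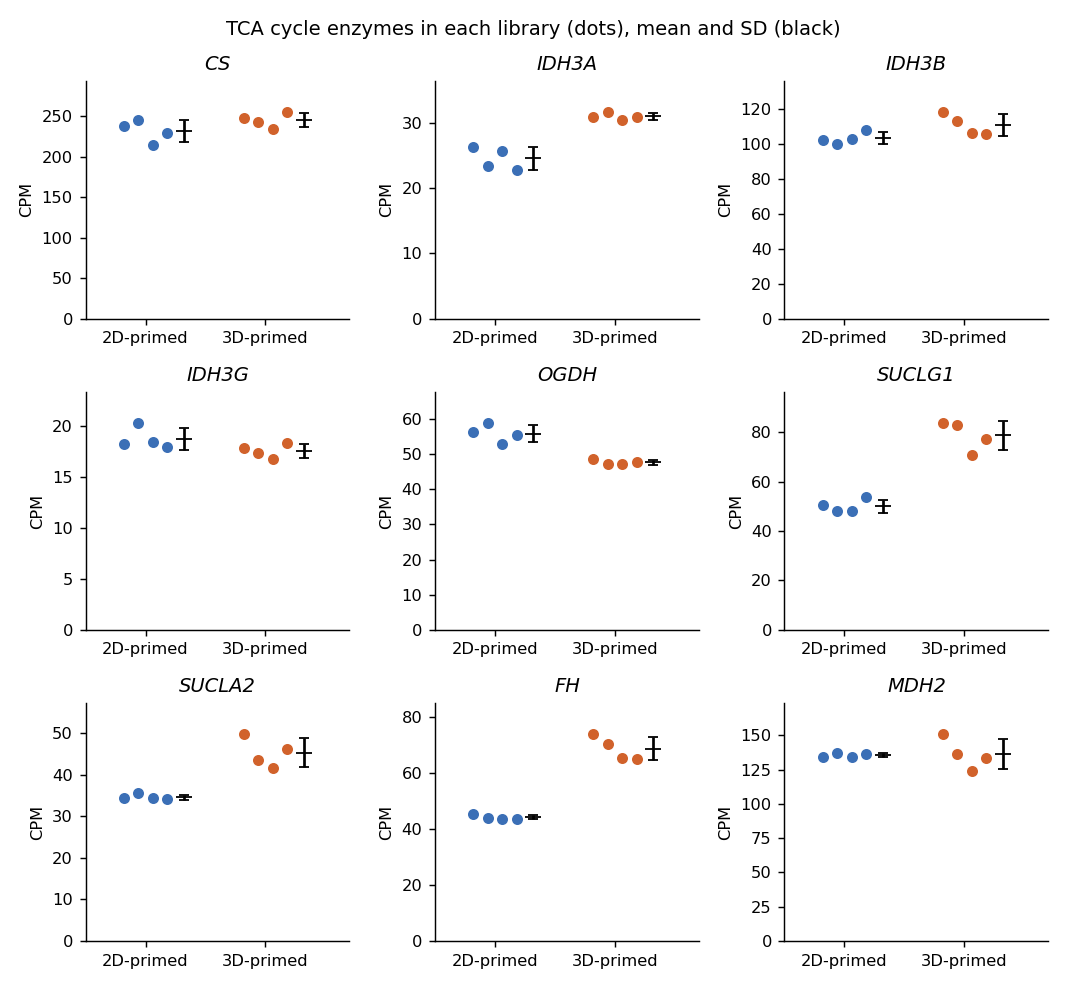
CPM (vertical axes, from 0) of each of the 9 genes in the 4 2D-primed (blue) and 4 3D-primed (orange) libraries, with the mean and SD in black. SUCLG1, FH, SUCLA2 and IDH3A lie higher in every 3D-primed than in every 2D-primed library, OGDH lies lower, and the groups of CS, IDH3B, IDH3G and MDH2 overlap.

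CS encodes citrate synthase, which joins acetyl-CoA to oxaloacetate and opens the cycle (ENSG00000062485, chr12:56271699-56300391, minus strand, 11 exons in the reference transcript; positions of genes are those of GENCODE on GRCh38). Its level was 237, 246, 214 and 229 CPM in the 4 2D-primed libraries and 247, 242, 235 and 255 CPM in the 4 3D-primed libraries. Values of both groups interleave, and the lowest is 2D-primed replicate 3. The means were 231 ± 13.3 CPM (SD, n = 4) and 245 ± 8.59 CPM (SD, n = 4), with a log2 fold change of 0.08 (SE 0.0484, adjusted p = 0.170). With upper-quartile scaling CS was called, at 0.13 (adjusted p = 0.0331). The span of CS overlaps 2 annotated genes, 1 of them on the same strand. Of the 2, 1 is in the files, with a mean of 10.8 CPM over all libraries.

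NAD-dependent isocitrate dehydrogenase, the first step that releases carbon dioxide, is built from a catalytic subunit, IDH3A (ENSG00000166411, chr15:78131498-78171945, plus strand), and the subunits IDH3B (ENSG00000101365, chr20:2658395-2664219, minus strand) and IDH3G (ENSG00000067829, chrX:153785766-153794512, minus strand). Only the catalytic subunit passed the test. IDH3A stood at 26.3, 23.4, 25.6 and 22.7 CPM in 2D-primed and at 30.9, 31.6, 30.4 and 30.9 CPM in 3D-primed libraries. Every 3D-primed value lies above every 2D-primed value, and the 3D-primed values are the closer together. The means were 24.5 ± 1.73 CPM and 30.9 ± 0.489 CPM (SD, n = 4 each), a log2 fold change of 0.34 (SE 0.0537, adjusted p = 2.9e-04). IDH3B stood at 102, 100.1, 103 and 108 CPM in 2D-primed and at 118, 113, 106 and 106 CPM in 3D-primed libraries. The highest 2D-primed library, replicate 4, exceeds the 2 lowest 3D-primed libraries. The means of IDH3B were 103 ± 3.30 CPM and 111 ± 6.06 CPM (SD, n = 4 each), a log2 fold change of 0.10 (SE 0.0464, adjusted p = 0.0786). It was called at 0.13 without 3D-primed replicate 4 (adjusted p = 0.0473), and it turned to -0.02 with offsets that remove the trend of each library with GC content and transcript length (adjusted p = 0.625). IDH3G stood at 18.2, 20.3, 18.4 and 18.0 CPM in 2D-primed and at 17.8, 17.3, 16.8 and 18.3 CPM in 3D-primed libraries. The groups overlap, with the highest value in 2D-primed replicate 2. The means were 18.7 ± 1.05 CPM and 17.6 ± 0.672 CPM (SD, n = 4 each), a log2 fold change of -0.09 (SE 0.0565, adjusted p = 0.174), and -0.18 with the same offsets (adjusted p = 0.0140). The span of IDH3G overlaps SSR4 on the opposite strand, which had a mean of 83.6 CPM over all libraries. The library kit marks strand, and whether the counting used it is not given in the sources used here.

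IDH3A moved apart from both of its partners. Within a library, the ratio of 2 genes does not depend on how libraries are scaled. The log2 ratio of IDH3A to IDH3G counts was 0.53, 0.21, 0.48 and 0.34 in the 2D-primed libraries, against 0.79, 0.87, 0.86 and 0.75 in the 3D-primed ones, without overlap. It rose by 0.43 (exact two-sided permutation test, p = 0.0286, adjusted p = 0.0371 over 13 ratios). With 4 against 4 libraries 0.0286 is the smallest p this test can give. In 3D-primed libraries the lowest IDH3A value was 30.4 CPM and the highest IDH3G value 18.3 CPM. In 2D-primed libraries the highest IDH3A value was 26.3 CPM and the lowest IDH3G value 18.0 CPM. The ratio to IDH3G therefore had to separate, and its p is not a further test. IDH3A over IDH3B rose on the same scale by 0.24, with the same p and adjusted p in the exact permutation test. The adjustment over 13 ratios, here and below, counts several that had to separate. Their presence lowers the adjusted p of the other ratios, which would be higher without them. IDH3B over IDH3G had a log2 ratio of 2.46 ± 0.118 with 2D priming and 2.66 ± 0.0934 with 3D priming (SD, n = 4 each; exact permutation p = 0.0571, adjusted 0.0675), and its groups overlap.

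OGDH encodes the first component of the oxoglutarate dehydrogenase complex, which releases carbon dioxide a second time and yields succinyl-CoA (ENSG00000105953, chr7:44606572-44709066, plus strand, 23 exons). It stood at 56.4, 58.9, 52.8 and 55.4 CPM in 2D-primed and at 48.7, 47.2, 47.2 and 47.9 CPM in 3D-primed libraries. All 3D-primed values lie below all 2D-primed values. The means were 55.9 ± 2.50 CPM and 47.8 ± 0.714 CPM (SD, n = 4 each), a log2 fold change of -0.23 (SE 0.0404, adjusted p = 6.2e-04). DLST, the second component, was lower (log2 fold change -0.25, adjusted p = 3.5e-04), at 93.0 ± 4.58 CPM against 111 ± 1.28 CPM (SD, n = 4 each). DLD, the third component, which the pyruvate and branched-chain oxoacid dehydrogenases also use, was higher, at 80.1 ± 3.56 CPM against 52.9 ± 0.696 CPM in 2D-primed cells (SD, n = 4 each; log2 fold change 0.60, adjusted p = 7.3e-07). Relative to DLST, OGDH had a log2 ratio of -0.99 ± 0.0685 with 2D priming and -0.96 ± 0.0805 with 3D priming (SD, n = 4 each; exact permutation p = 0.571), with overlapping groups. Relative to DLD, it fell by 0.82 on the log2 scale, without overlap (exact permutation p = 0.0286, adjusted 0.0371). All OGDH values were lower and all DLD values higher in the 3D-primed libraries, so this ratio had to separate and its p is not a further test. OGDHL, a paralogue of OGDH, stood at 5.96 ± 0.733 CPM and 6.40 ± 0.863 CPM (SD, n = 4 each) and did not pass the test (log2 fold change 0.10, adjusted p = 0.487).

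Succinyl-CoA ligase turns succinyl-CoA into succinate and makes a nucleoside triphosphate directly. Its alpha subunit SUCLG1 (ENSG00000163541, chr2:84423528-84460045, minus strand, 9 exons) pairs either with SUCLA2, which makes the enzyme form ATP (ENSG00000136143, chr13:47745736-48037968, minus strand, 11 exons), or with SUCLG2, which makes it form GTP. SUCLG1 stood at 50.7, 48.0, 48.2 and 53.6 CPM in 2D-primed and at 83.7, 83.1, 70.7 and 77.4 CPM in 3D-primed libraries. The lowest 3D-primed value, in replicate 3, is well above the highest 2D-primed value. The means were 50.2 ± 2.62 CPM and 78.8 ± 6.07 CPM (SD, n = 4 each), a log2 fold change of 0.65 (SE 0.0611, adjusted p = 6.7e-06). SUCLA2 stood at 34.3, 35.5, 34.4 and 34.1 CPM in 2D-primed and at 49.7, 43.5, 41.7 and 46.2 CPM in 3D-primed libraries. Its 2D-primed values lie close together and its 3D-primed values are all higher and more spread. The means were 34.6 ± 0.626 CPM and 45.3 ± 3.48 CPM (SD, n = 4 each), a log2 fold change of 0.39 (SE 0.0546, adjusted p = 1.2e-04). With offsets for GC content and length it was 0.23 and still called (adjusted p = 0.00372). The span of SUCLA2 overlaps 7 annotated genes, 3 of them on the same strand. Of the 7, 3 are in the files, the highest with a mean of 25.3 CPM over all libraries.

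The partner of SUCLG1 in the GTP-forming enzyme went the other way. SUCLG2 stood at 65.7, 68.3, 68.7 and 67.8 CPM in 2D-primed and at 64.2, 63.4, 56.0 and 55.1 CPM in 3D-primed libraries, with all 3D-primed values lower. Its log2 fold change was -0.18 (adjusted p = 0.0155). The call was lost with upper-quartile scaling, at -0.13 (adjusted p = 0.0567), and the change was -0.31 with offsets for GC content and length (adjusted p = 3.8e-04). SUCLA2 over SUCLG2 had log2 ratios of -0.937, -0.945, -0.995 and -0.991 in the 2D-primed libraries, against -0.371, -0.545, -0.425 and -0.254 in the 3D-primed ones. It rose by 0.57, without overlap (exact permutation p = 0.0286, adjusted 0.0371), so that SUCLA2 counts went from 0.512 of SUCLG2 counts to 0.759. With all SUCLA2 values higher and all SUCLG2 values lower in 3D-primed libraries, this ratio had to separate, and its p is not a further test. SUCLG1 also gained on SUCLA2, by 0.26 on the log2 scale (exact permutation p = 0.0286, adjusted 0.0371).

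FH encodes fumarase, which adds water to fumarate to give malate (ENSG00000091483, chr1:241497511-241519799, minus strand, 10 exons). It stood at 45.3, 44.1, 43.8 and 43.8 CPM in 2D-primed and at 73.9, 70.5, 65.5 and 65.1 CPM in 3D-primed libraries. The 2D-primed values are nearly equal, and each 3D-primed value is far above them. The means were 44.2 ± 0.742 CPM and 68.7 ± 4.22 CPM (SD, n = 4 each), a log2 fold change of 0.64 (SE 0.0473, adjusted p = 1.4e-06). Leaving out any 1 library gave 0.59 to 0.66. Succinate dehydrogenase, the enzyme before it and also complex II of the respiratory chain, was lower in SDHA (log2 fold change -0.24, adjusted p = 5.9e-04) and SDHB (-0.19, adjusted p = 0.0125). SDHC was higher (0.27, adjusted p = 5.7e-04) and SDHD did not pass the test (-0.04, adjusted p = 0.522). With offsets for GC content and length, SDHB stood at -0.35, SDHC at 0.11 and SDHD at -0.24, each with an adjusted p below the threshold. Relative to SDHA, FH had a log2 ratio of -2.09 ± 0.0321 with 2D priming and -1.21 ± 0.0558 with 3D priming (SD, n = 4 each), a rise of 0.88 without overlap (exact permutation p = 0.0286, adjusted 0.0371). All FH values were higher and all SDHA values lower in the 3D-primed libraries. This separation therefore follows from the values of each gene, and its p is not a further test. FH counts went from 0.235 of SDHA counts to 0.431.

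MDH2 encodes mitochondrial malate dehydrogenase, which restores oxaloacetate (ENSG00000146701, chr7:76048051-76067508, plus strand, 9 exons). It stood at 134, 137, 134 and 136 CPM in the 2D-primed libraries and at 151, 136, 124 and 133 CPM in the 3D-primed ones. The 3D-primed values lie on both sides of the 2D-primed ones, with replicate 1 highest and replicate 3 lowest of all 8. The means were 135 ± 1.30 CPM and 136 ± 11.0 CPM (SD, n = 4 each), a log2 fold change of 0.01 (SE 0.0542, adjusted p = 0.902). Its direction turned with DESeq2 size factors, with offsets for GC content and length (-0.08) and without 3D-primed replicate 1 (-0.05). The log2 ratio of CS to MDH2, the enzymes on either side of oxaloacetate, was 0.77 ± 0.0761 and 0.85 ± 0.0999 (SD, n = 4 each), with overlapping groups (exact permutation p = 0.286, adjusted 0.310).

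**Figure D2:**
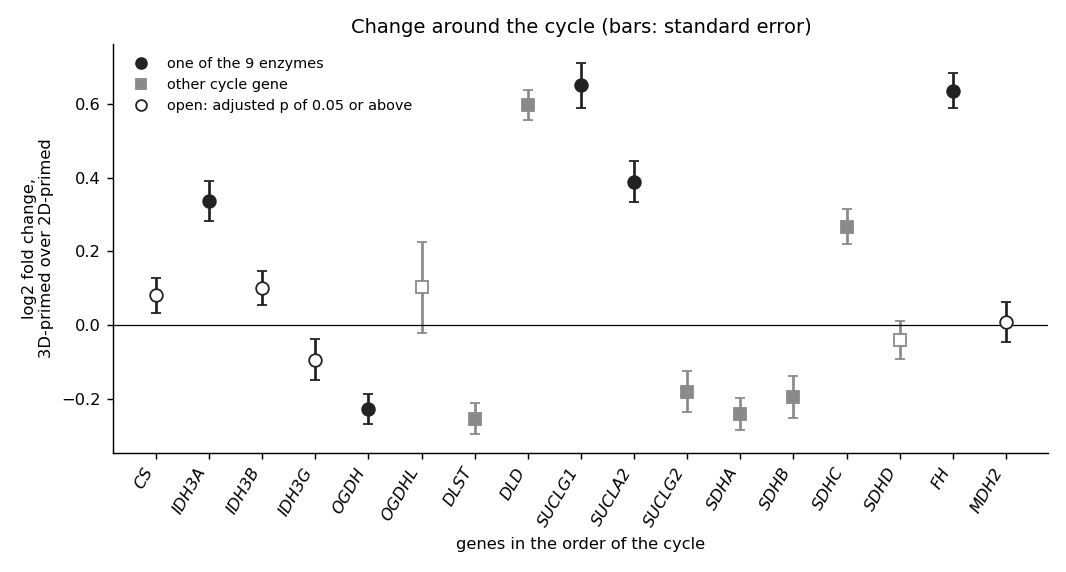
Log2 fold change (vertical axis, 3D-primed over 2D-primed, with the standard error) of the 9 enzymes (black circles) and 8 other cycle genes (grey squares), in the order of the cycle. DLD, SUCLG1, SUCLA2 and FH form the high values at 0.39 to 0.65, while OGDH, DLST, SUCLG2, SDHA and SDHB lie between -0.25 and -0.18.

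**Figure D3:**
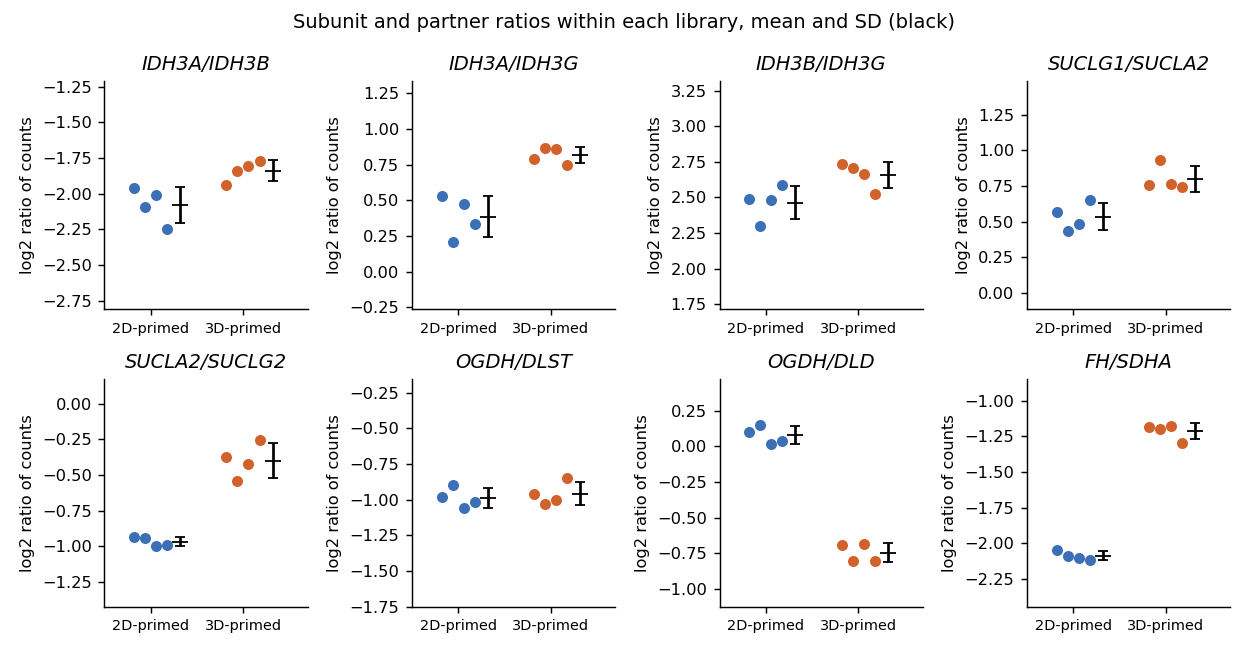
Log2 ratio of counts (vertical axes, the same span of values in each panel) for 8 pairs of subunits or neighbouring enzymes in each library, 2D-primed in blue and 3D-primed in orange, with the mean and SD in black. OGDH/DLST overlaps between groups and differs by 0.03, while SUCLA2/SUCLG2 differs by 0.57, FH/SDHA by 0.88 and OGDH/DLD by -0.82 without overlap.

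Around the cycle, 8 genes not among the enzymes above (DLST, DLD, OGDHL, SUCLG2, SDHA, SDHB, SDHC and SDHD) gave 2 higher, 4 lower and 2 not called, with a median log2 fold change of -0.11. Of the 4 lower genes all but SDHB had groups without overlap. Of all genes tested, 32.4% were called higher and 31.6% lower. Groups did not overlap for 5 of these 8 genes, against 59.8% of all genes tested. Summed over the 9 enzymes, the 2D-primed libraries held 698 ± 16.3 CPM and the 3D-primed libraries 781 ± 34.3 CPM (SD, n = 4 each). In share of all counts, the 2D-primed range was 0.0663% to 0.0712% and the 3D-primed range 0.0739% to 0.0816%.

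The fewest counts in a library were 391 for IDH3G and 538 for IDH3A, and the most were 6558 for CS. Over the 19 alternatives to the main test, the log2 fold change of SUCLG1 ran from 0.49 to 0.70, that of FH from 0.48 to 0.69, that of SUCLA2 from 0.22 to 0.44, that of IDH3A from 0.30 to 0.39 and that of OGDH from -0.25 to -0.18. Each of these genes stayed called in every alternative, with a highest adjusted p of 8.5e-05 for SUCLG1, 3.0e-05 for FH, 0.0112 for SUCLA2, 0.00185 for IDH3A and 0.00470 for OGDH. Of the genes that were not called, CS, IDH3B and IDH3G were called in at least 1 alternative each, and MDH2 in none. Spread differed among the enzymes: the SD over 3D-primed libraries was 11.0 CPM for MDH2 and 0.489 CPM for IDH3A, and 3D-primed replicate 1 held the highest value of FH, SUCLG1, SUCLA2, IDH3B and MDH2.

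Levels can be compared between genes only per length. Per kilobase of the reference transcript, CS was highest, at 79.4 and 84.0 CPM per kilobase (2D-primed and 3D-primed means), and IDH3A lowest, at 6.00 and 7.58 CPM per kilobase. Between them the same pair of means was 67.0 and 71.9 for IDH3B, 62.4 and 62.8 for MDH2 and 39.5 and 62.0 for SUCLG1. It was 24.7 and 38.4 for FH, 16.4 and 21.4 for SUCLA2, 14.0 and 13.2 for IDH3G and 13.3 and 11.4 for OGDH. In 2D-primed cells only IDH3G and OGDH, next to each other in this order, overlap in their libraries. In 3D-primed cells SUCLG1 overlaps MDH2, and MDH2 overlaps IDH3B. The order depends on the transcript taken: with the mean length of the protein-coding transcripts of each gene, CS and SUCLG1 kept the first and the fourth place, while IDH3A moved from place 9 to 6 and FH from place 5 to 8 in 2D-primed cells.

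Several reactions of the cycle have counterparts in the cytosol or with NADP as cofactor. IDH1, the NADP-dependent isocitrate dehydrogenase of cytosol and peroxisomes, reached 675 ± 51.0 CPM in 3D-primed against 200.4 ± 25.1 CPM in 2D-primed libraries (SD, n = 4 each; log2 fold change 1.75, adjusted p = 1.6e-07). IDH2, the NADP-dependent mitochondrial form, was lower, at 123 ± 5.22 and 89.6 ± 10.3 CPM (SD, n = 4 each; -0.45, adjusted p = 3.2e-04). IDH3A fell by 1.42 relative to IDH1 and rose by 0.80 relative to IDH2 on the log2 scale, both without overlap (exact permutation p = 0.0286, adjusted 0.0371). The ratio to IDH2 had to separate, since all IDH3A values were higher and all IDH2 values lower in 3D-primed libraries. The ratio to IDH1 had to separate as well. IDH1 was at most 216 CPM in 2D-primed and at least 604 CPM in 3D-primed libraries. IDH3A ran only from 22.7 to 31.6 CPM over all libraries. Neither p is a further test. MDH1, the cytosolic malate dehydrogenase of the malate-aspartate shuttle, was higher by 0.16 in log2 units (adjusted p = 0.0225). Its call was lost without 2D-primed replicate 3, 3D-primed replicate 1 or 3D-primed replicate 2 (0.14, 0.10 and 0.14, adjusted p = 0.0600, 0.0628 and 0.0651), and its direction turned with offsets for GC content and length (-0.03). The log2 ratio of MDH2 to MDH1 counts was 0.03 to 0.09 in the 2D-primed libraries and -0.11 to -0.07 in the 3D-primed ones. It is not scaled to transcript length, so its sign does not say which gene is the more abundant. It fell by 0.15 (exact permutation p = 0.0286, adjusted 0.0371), and by 0.05 with those offsets (adjusted p = 0.0675). Of the 5 genes of this list that were tested, 2 were higher and 1 was lower, against 32.4% and 31.6% of all genes tested. ACO1 stood at 0.03 and ME2 at -0.10 on the log2 scale (both named after their values were seen). ME2 was called at -0.16 without 3D-primed replicate 2 (adjusted p = 0.0469). ME1 and ME3 had too few counts.

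Pyruvate reaches the cycle through its carrier and the pyruvate dehydrogenase complex. Of 12 tested genes of this entry 7 were higher and 4 lower, against 32.4% and 31.6% of all genes tested. The median log2 fold change of the 12 was 0.26. Both subunits of the mitochondrial pyruvate carrier were higher, MPC1 by 1.49 on the log2 scale (32.1 ± 3.32 to 89.9 ± 7.05 CPM, SD, n = 4 each, adjusted p = 1.8e-07) and MPC2 by 0.72 (adjusted p = 4.1e-06). PDHB, a subunit of the first component of the complex, was higher by 0.40 (adjusted p = 3.8e-05), and by 0.23 with offsets for GC content and length. The 4 lower genes, all named after their values were seen, were PDK1 (-0.86), PDPR (-0.40), PDHX (-0.18) and PDK3 (-0.22). PDK1 and PDK3 are kinases that switch the complex off, while PDK2, another such kinase, was higher (0.38, adjusted p = 0.00170, also named after its values were seen). PDPR restrains the phosphatase that switches the complex on. With offsets for GC content and length PDPR stood at -0.22, PDHX at -0.29 and PDK3 at -0.36. The call of PDK3 was lost without 2D-primed replicate 1 or 4 or 3D-primed replicate 1 or 4 (adjusted p = 0.0698 to 0.110), and also with total counts, upper-quartile scaling, no filter on low counts or a replicate block (0.0751, 0.116, 0.0590 and 0.0614).

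Of 6 carriers that move cycle intermediates or related acids across the inner membrane, 4 were higher and none lower, against 32.4% and 31.6% of all genes tested. The median log2 fold change of the 6 was 0.34. SLC25A13, an aspartate-glutamate carrier, rose by 0.60 (58.9 ± 1.66 to 89.5 ± 2.86 CPM, SD, n = 4 each, adjusted p = 5.5e-07), and SLC25A1, which exports citrate, by 0.50 (adjusted p = 1.7e-05). SLC25A21, an oxoadipate carrier, rose by 1.27 (adjusted p = 9.7e-04) from a level of only 0.772 ± 0.227 CPM (SD, n = 4). The 4th was SLC25A11, the oxoglutarate-malate carrier, named after its values were seen. Its change of 0.18 (adjusted p = 0.0288) lost its call without 2D-primed replicate 3 or 4 or 3D-primed replicate 1 or 2 (adjusted p = 0.0642 to 0.0853) and with offsets for GC content and length (0.11, adjusted p = 0.0787).

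Genes that feed the cycle or draw from it numbered 16, with a median log2 fold change of 0.37. Of these, 11 were higher and 3 lower, against 32.4% and 31.6% of all genes tested. PCK2, the mitochondrial enzyme that makes phosphoenolpyruvate from oxaloacetate, rose by 1.68 (109 ± 7.48 to 347 ± 14.5 CPM, SD, n = 4 each, adjusted p = 1.6e-08). ACLY, which splits exported citrate for lipid synthesis, rose by 1.07 (adjusted p = 7.9e-08), and GOT1, the cytosolic aspartate aminotransferase, by 0.58 (adjusted p = 1.5e-06). The log2 ratio of CS to ACLY counts fell by 0.99, without overlap (exact permutation p = 0.0286, adjusted 0.0371). ACLY was at most 218 CPM in 2D-primed and at least 416 CPM in 3D-primed libraries. CS ran only from 214 to 255 CPM over all libraries. This ratio therefore had to separate, and its p is not a further test. The 3 lower genes, named after their values were seen, were PCK1 (-0.81), the cytosolic counterpart of PCK2, PC (-0.50), which makes oxaloacetate from pyruvate, and GPT2 (-0.19), the mitochondrial alanine aminotransferase.

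Oxoglutarate and pyruvate dehydrogenases need lipoate bound to their second component. Of 5 genes for its synthesis and attachment, LIAS (0.28, adjusted p = 0.00503) and MCAT (0.26, adjusted p = 0.0115) were higher on the log2 scale and LIPT1 stood at -0.21 (adjusted p = 0.0680, and -0.42 with offsets for GC content and length, adjusted p = 0.00281). The 4 assembly factors of succinate dehydrogenase were all called higher, as were 32.4% of all genes tested. SDHAF1 rose by 0.69 (adjusted p = 9.9e-06), SDHAF4 by 0.71 (adjusted p = 8.4e-04) and SDHAF3 by 0.48 (adjusted p = 0.00139, and 0.28 with these offsets). SDHAF2, at 0.21 (adjusted p = 0.0277), lost its call without 2D-primed replicate 2, 3 or 4 or 3D-primed replicate 1 or 4 (adjusted p = 0.0529 to 0.0717) and with offsets for GC content and length (0.08).

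The outer membrane of mitochondria gave no common direction. Of its 10 listed genes 7 were higher and 3 lower, against 32.4% and 31.6% of all genes tested. The median log2 fold change of the 10 was 0.19, and 4 were higher with these offsets and a replicate block. VDAC1 and VDAC2, the main pores for metabolites, fell by 0.70 and 0.68 on the log2 scale (378 ± 19.2 to 233 ± 4.95 CPM for VDAC1, SD, n = 4 each, adjusted p = 4.2e-07 and 8.5e-07). The third lower gene, named after its values were seen, was TOMM20 (-0.15). TOMM70, a receptor for imported proteins, rose by 0.27 (adjusted p = 1.7e-04). Among 11 genes that control mitochondrial genes, 4 were higher and 2 lower, or 4 lower with median-of-ratios size factors. TFAM and TFB1M, which act on mitochondrial DNA and on the mitochondrial ribosome, rose by 0.57 (adjusted p = 2.7e-06) and 0.69 (adjusted p = 3.3e-06), and YY1, a transcription factor of many nuclear genes, fell by 0.43 (adjusted p = 1.1e-05). The other called genes of this list, named after their values were seen, were TFB2M (0.31, and 0.15 without a call with the offsets), GABPA (0.21) and PPRC1 (-0.38). NRF1 (-0.14, adjusted p = 0.0560) and GABPB1 (-0.13, adjusted p = 0.0523), named in the same way, did not pass the main test. Both were called lower with median-of-ratios size factors (-0.15 and -0.14, adjusted p = 0.0427 and 0.0378). Transcripts of mitochondrial DNA made up 1.60 ± 0.194% of 2D-primed and 2.66 ± 0.230% of 3D-primed counts (SD, n = 4 each). Over the 77 tested genes of all lists other than the 9 enzymes, 43 were higher and 17 lower, against 32.4% and 31.6% of all genes tested. The median log2 fold change of the 77 was 0.21, against 0.10 for the enzymes.

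**Figure D4:**
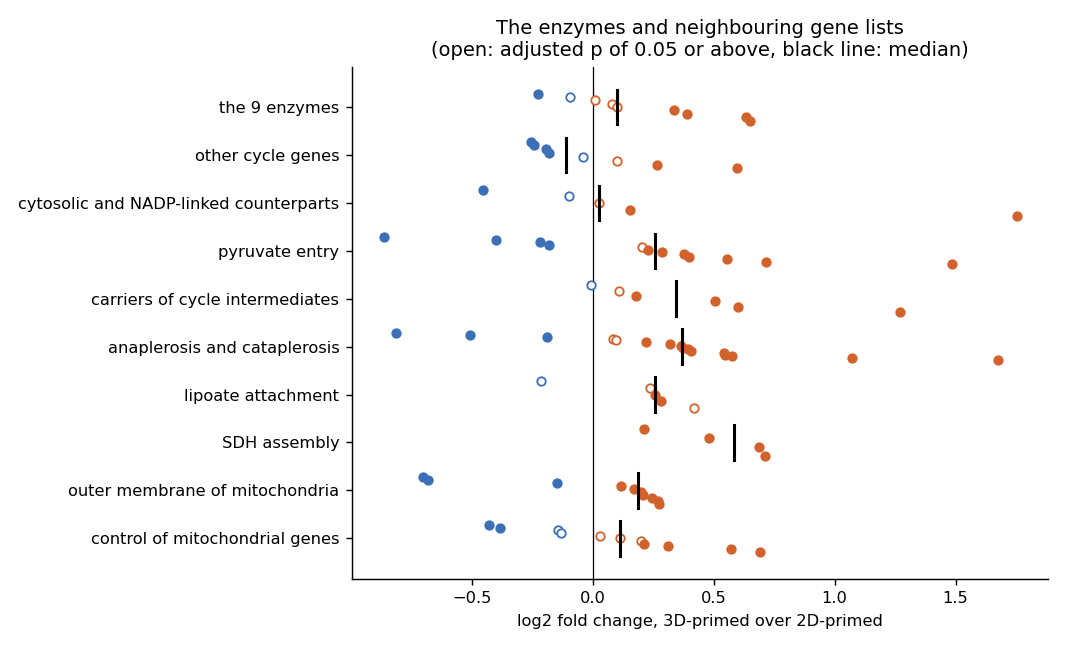
Log2 fold change (horizontal axis, 3D-primed over 2D-primed) of every tested gene of the 9 enzymes and of each neighbouring list, with open circles for genes that did not pass the test and the median of each list as a black line. The medians run from -0.11 for the other cycle genes to 0.59 for the assembly factors of succinate dehydrogenase, with the 9 enzymes at 0.10.

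Taking the mean of the 9 centred log2(CPM + 0.5) profiles over the 8 libraries, the genes most like it among 8715 with a mean of at least 10 CPM were PDIA4, EIF5A, ATIC, UQCRFS1 and ADK, with a root mean square distance of 0.0182 to 0.0243 log2 units. The enzymes themselves lay farther from their own mean, from 0.0692 for IDH3B to 0.227 for SUCLG1. The genes named before them were picked as the closest of 8715 and the enzymes were not. This order therefore follows from the picking and is not a result about the enzymes. The likeness is a description over 8 libraries that share 2 groups.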

How the data were processed

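RNA of 8 HepG2 libraries, 4 2D-primed and 4 3D-primed, was sequenced as 125 bp read pairs from poly(A)-selected, strand-marking libraries. The authors quantified reads with Salmon 0.14.1 on the GRCh38 cDNA of Ensembl release 98, summed them to genes with tximport 1.12.3 and deposited estimated counts, which are whole numbers here and were used as deposited. Whether tximport corrected them for transcript length, which could move comparisons of genes whose isoforms shift, is not given in the sources used here.

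Groups came from the labels. Symbols, spans and exons came from GENCODE 44 by identifier, which matched 78.0% of identifiers and 97.4% of counts. Genes reaching 10 counts in 2 or more libraries entered the test and were compared with edgeR 4.0.16 in R 4.3.3 (TMM, glmQLFit and glmQLFTest), with p adjusted by Benjamini-Hochberg over all genes tested and a threshold of 0.05. CPM are TMM-scaled. Ratios used counts plus 0.5 and exact two-sided permutation tests in SciPy 1.17.1. The pipeline was tested on simulated data.

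Libraries of one group differed by more than counting error (chi-square per degree of freedom 6.34 to 17.4), so that none was counted as a duplicate. Alternatives were DESeq2 1.42.0, voom of limma 3.58.1, other scalings and filters, a replicate block, offsets for GC content and length (values for 95.3% of tested genes) and leaving out each library. Text names the 9 enzymes, the other cycle genes, the 3 genes with the smallest p in each further list, genes used in ratios and the 5 genes of most similar profile, with exceptions stated. The values of 1 listed gene are not reported here. The members and lists were chosen with earlier results of these data known. Promoters came from RefSeq, searched over 250 bases.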

Additional observations from a re-analysis of the deposited data

Results flagged for a closer look

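Within a group of 4 libraries, 1 library stood apart from the other 3 by Dixon's test in 5 of 110 groups of values, where chance flags about 1 in 20. For the cycle itself, DLST was low in 3D-primed replicate 4, at 86.2 CPM against 94.7 to 96.3 CPM in the other 3, and SDHC was high in 3D-primed replicate 1, at 136 CPM against 121 to 122 CPM. The log2 ratio of SUCLG1 to SUCLA2 was high in 3D-primed replicate 2, at 0.94 against 0.74 to 0.76, and all 4 values lie above those of the 2D-primed libraries. In 2D-primed replicate 3, IDH1 was low, at 163 CPM against 211 to 216 CPM, and so was ACLY, at 193 CPM against 214 to 218 CPM.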

How the results depend on the processing

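IDH3A, SUCLG1, SUCLA2, FH and OGDH kept their direction and their call under all 19 alternatives. Members called lower rose from 1 to 2 with offsets for GC content and length, with or without the replicate block, since IDH3G was then called at -0.18. With these offsets IDH3B turned to -0.0219 without the block and -0.0221 with it and MDH2 to -0.0792 and -0.0813, and the log2 ratio of MDH2 to MDH1 lost its call at -0.0509. Upper-quartile scaling called CS at 0.13 and IDH3B at 0.15 and turned SDHD to 0.0095, and scaling to total counts called IDH3B at 0.13. MDH2 turned to -0.0018 with DESeq2 and with median-of-ratios size factors. The cause of these changes was not tested. Leaving out 1 library gave 0.0629 to 0.125 for IDH3B, called only without 3D-primed replicate 4, -0.0499 to 0.0429 for MDH2 and -0.0092 to 0.0587 for the log2 ratio of OGDH to DLST, which turned without 3D-primed replicate 4. Libraries with the same replicate number shared no clear deviation (correlation of deviations -0.043, -0.014, 0.057 and 0.006). Between different numbers the correlations ran from -0.083 to 0.110. The labels do not say what the numbers mean, and these values cannot decide whether they pair the libraries. With the replicate block, 4 members were called higher and 1 lower, as without it, and 4267 and 4223 of all genes tested, against 4515 and 4401. No scaling moved the median of all genes by over 0.1 on the log2 scale. What limits the precision was not tested.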
